A study of Homo sapiens with 6 samples.

Results

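The 10 major genes of the heterogeneous nuclear ribonucleoproteins (hnRNPs) were followed in SW480 cells, which come from an adenocarcinoma of the human colon. They were HNRNPA1, HNRNPA2B1, HNRNPC, HNRNPD, HNRNPF, HNRNPH1, HNRNPK, HNRNPL, HNRNPM and HNRNPU, chosen by symbol as 10 of the 56303 genes in the count table. The cells carried a lentiviral control short hairpin RNA (shCtrl, genotype given as WT) or a hairpin against MORC2 (shMORC2, genotype given as MORC2 knockdown), and each group had 3 libraries. The study described puromycin selection of stable clonal lines, and no other treatment separated the groups. The sample titles name only shCtrl or shMORC2 and a replicate, and do not say how many hairpins or cell populations were sequenced. What else sets the groups apart cannot be told apart from the knockdown of MORC2.

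The hnRNPs are abundant nuclear RNA-binding proteins that coat pre-mRNA as it is transcribed. They steer the choice of exons, often by holding a splice site back or by competing with SR proteins, and some of them also act in export, stability and translation of mRNA. Several hnRNP genes control their own output through splicing of their own transcripts. MORC2 is a nuclear ATPase of the microrchidia family, and the study asked how it acts on alternative splicing in colon cancer cells, which makes the level and the splicing of the hnRNP genes a natural question of the design.

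Libraries held 42092664 to 43434425 counted reads, of which the 10 hnRNP genes took 1.21% to 1.44% and mitochondrial genes 7.04% to 8.90%. MORC2 itself stood at 7.55, 7.45 and 7.62 RPKM (reads scaled by exon length and library total) in shCtrl and at 5.72, 4.59 and 4.29 RPKM in shMORC2. Its log2 fold change was -0.63 (SE 0.10, adjusted p 0.000216 by edgeR), and the groups did not overlap. The epithelial genes EPCAM, KRT8, KRT18, CDH1, CDX2 and VIL1 were all present, with a summed level of 3589 to 4522 RPKM in shCtrl and 3486 to 4543 RPKM in shMORC2, and CDX2 was the 1 of the 6 that was called (higher in shMORC2, with overlapping groups). The 7 genes of other cell types summed to 2.97 to 3.39 RPKM in shCtrl and 3.57 to 3.91 RPKM in shMORC2. Of these, HBB was at 0, and PTPRC, CD3E and DCN held at most 6 counts in any library. PECAM1 was detected at a mean of 1.95 RPKM in shCtrl and 2.35 RPKM in shMORC2, and COL1A1 at 0.950 and 1.05 RPKM. Neither was called, though PECAM1 was called higher with the replicate number as a block. VWF, at a mean of 0.213 and 0.307 RPKM, was called higher. The part of these marker genes in the results on the hnRNP genes was not tested. Fewer cells of a type and less RNA per cell cannot be told apart in bulk RNA.

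All 10 hnRNP genes were expressed at a high level. In shCtrl they lay between the 91.6th and the 99.8th percentile of the tested genes by mean RPKM. HNRNPA1 led with 834 ± 17.1 RPKM (SD, n = 3), followed by HNRNPA2B1 with 318 ± 38.7 and HNRNPF with 261 ± 3.78 RPKM. These 3 were separated from each other and from the genes under them in every shCtrl library. HNRNPM, HNRNPU, HNRNPD, HNRNPC and HNRNPK came next with means between 118 and 148 RPKM, and each overlapped its neighbour in that order. HNRNPH1 had 40.2 ± 2.48 RPKM and HNRNPL 26.4 ± 0.307 RPKM, each below the preceding gene in all 3 shCtrl libraries. HNRNPA1 alone made up 39.6% ± 1.69 of the summed RPKM of the 10 genes in shCtrl (SD, n = 3). The order and this share hold for RPKM over all annotated exon bases of a gene. That length ran from 3253 bases for HNRNPF to 13564 for HNRNPU and need not be that of the transcripts present. In counts, HNRNPU was above HNRNPF in every shCtrl library (83562, 63918 and 67143 against 36859, 35820 and 35253).

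**Figure D1:**
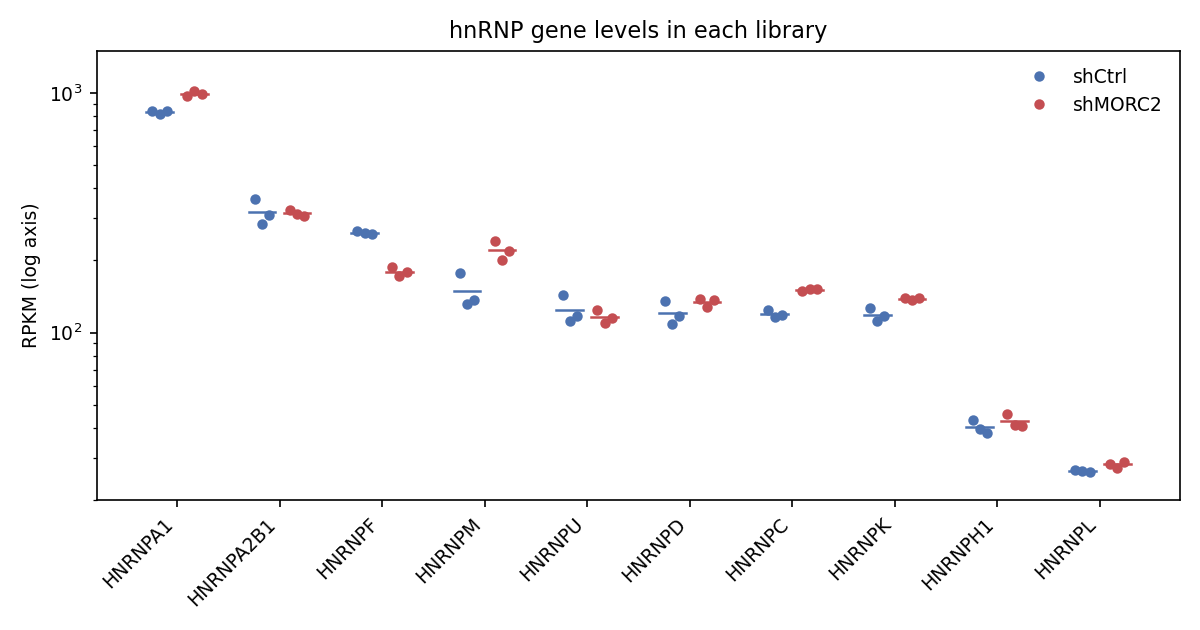
RPKM of the 10 hnRNP genes (log axis) in the 3 shCtrl libraries (blue) and the 3 shMORC2 libraries (red), with a line at each group mean and replicates 1 to 3 from left to right. HNRNPF sits lower and HNRNPM, HNRNPC, HNRNPA1 and HNRNPK sit higher in all 3 shMORC2 libraries, while HNRNPA2B1 and HNRNPU overlap between the groups.

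Of the 10 genes, 5 passed edgeR's quasi-likelihood test (adjusted p under 0.05): HNRNPM, HNRNPC, HNRNPA1 and HNRNPK were higher in shMORC2 and HNRNPF was lower. Of the 21005 genes tested, 39.5% were called, 19.9% as higher and 19.6% as lower, so 5 of 10 was near the share of all genes. The median log2 fold change was 0.13 over the 10 genes and -0.0056 over all genes tested. The groups did not overlap for 6 of the 10 genes, against 50.2% of all genes. With the replicate number as a block, 6 of the 10 were called, against 49.0% of all genes, and HNRNPD was the added gene.

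HNRNPF (chromosome 10, 43385617 to 43409166, minus strand, GRCh38) binds runs of guanines in pre-mRNA and can promote or repress the neighbouring splice site. It stood at 265, 261 and 257 RPKM in shCtrl and at 187, 173 and 178 RPKM in shMORC2. It was the 1 gene of the 10 called lower, with a wide gap between the groups in every library. Its log2 fold change was -0.53 (SE 0.07, adjusted p 6.59e-05 by edgeR), which left a fold of 0.690. Its close relative HNRNPH1, which also binds guanine runs, had a log2 fold change of 0.09 (SE 0.07, adjusted p 0.346 by edgeR). The ratio of HNRNPF to HNRNPH1 RPKM was 6.17, 6.62 and 6.75 in shCtrl and 4.08, 4.21 and 4.37 in shMORC2. Its size depends on the exon lengths used, 3253 bases for HNRNPF and 9480 for HNRNPH1. The share of HNRNPF in the summed RPKM of the family went from 12.4% ± 0.622 to 7.75% ± 0.218 (SD, n = 3 each).

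HNRNPM (chromosome 19, 8444767 to 8489114, plus strand) is a splicing regulator known from the choice of CD44 and FGFR2 exons. It rose from 177, 132 and 137 RPKM in the shCtrl libraries to 241, 199.9 and 220 RPKM in the shMORC2 libraries. Replicate 1 was the highest of its group on both sides, and the groups did not overlap. The log2 fold change was 0.58 (SE 0.10, adjusted p 0.000643 by edgeR), the largest rise among the 10. By RPKM, HNRNPM stood below HNRNPF in every shCtrl library, at 0.667, 0.505 and 0.531 of its level. It stood above HNRNPF in every shMORC2 library, at 1.29, 1.16 and 1.23. This order depends on the exon lengths used for RPKM, 5614 bases for HNRNPM and 3253 for HNRNPF. In counts, HNRNPM was above HNRNPF in shCtrl replicate 1 (42413 against 36859). It was below HNRNPF in shCtrl replicates 2 (31193 against 35820) and 3 (32310 against 35253).

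HNRNPC (chromosome 14, 21209136 to 21269494, minus strand) forms the core tetramer of the hnRNP particle and binds uridine tracts. Its levels were 125, 116 and 118 RPKM in shCtrl and 149.6, 152 and 152 RPKM in shMORC2. The shMORC2 libraries lay close together and above all shCtrl libraries, with a log2 fold change of 0.35 (SE 0.07, adjusted p 0.00212 by edgeR). HNRNPA1 (chromosome 12, 54280193 to 54287088, plus strand), which represses many splice sites and shuttles to the cytoplasm, stood at 845, 814 and 842 RPKM in shCtrl and at 970, 1017 and 986 RPKM in shMORC2. Its log2 fold change was 0.26 (SE 0.08, adjusted p 0.0197 by edgeR). HNRNPK (chromosome 9, 83968083 to 83980616, minus strand), a KH-domain protein that binds cytidine-rich RNA and DNA, stood at 126, 112 and 117 RPKM in shCtrl and at 139, 137 and 139 RPKM in shMORC2, with a log2 fold change of 0.24 (SE 0.07, adjusted p 0.0208 by edgeR). Neither gene overlapped between the groups. The calls of HNRNPA1 and HNRNPK were lost in some fits with a library left out, where their adjusted p reached 0.0834 and 0.0869. HNRNPA1 lost its call when shCtrl 2 (log2 fold change 0.24), shMORC2 2 (0.23) or shMORC2 3 (0.26) was left out. HNRNPK lost its call when shCtrl 2 (0.19), shCtrl 3 (0.25), shMORC2 2 (0.23) or shMORC2 3 (0.23) was left out.

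**Figure D2:**
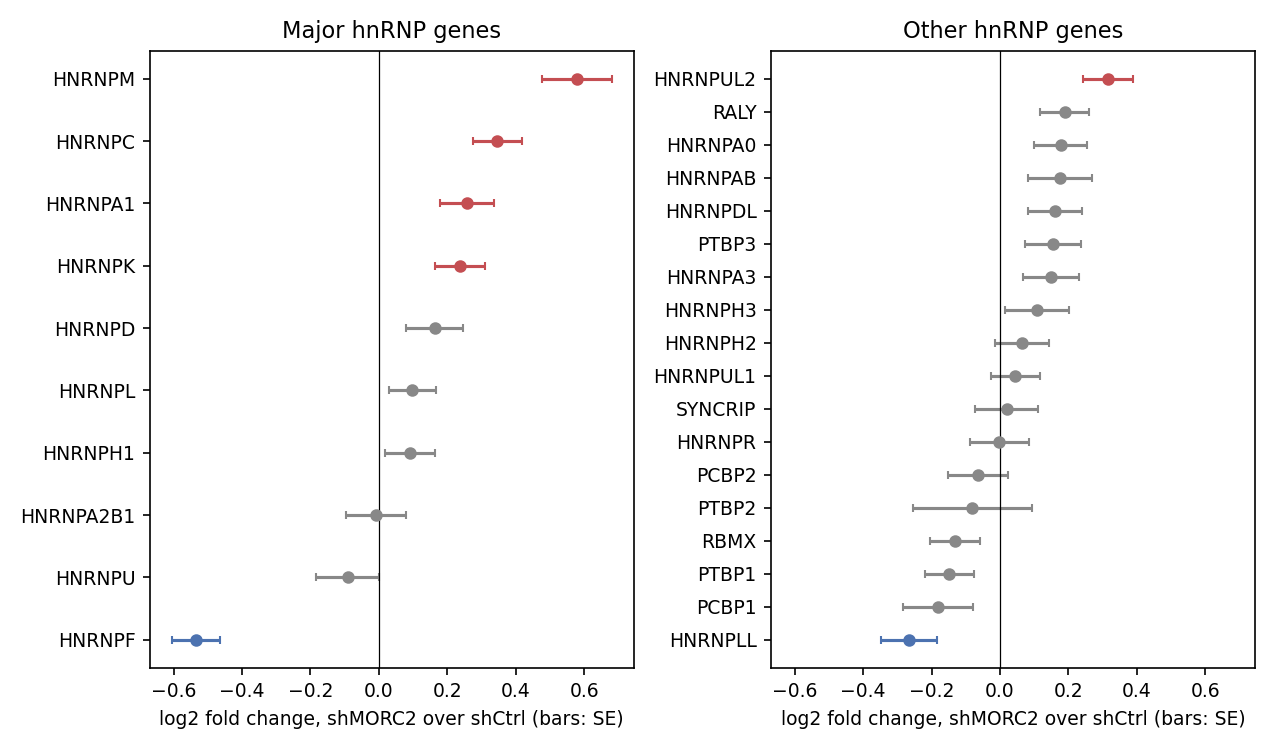
Log2 fold change of shMORC2 over shCtrl from edgeR, with the SE as bars, for the 10 major hnRNP genes (left) and 18 other hnRNP genes (right), where red marks genes called higher, blue genes called lower and grey genes that were not called. HNRNPM at 0.58 and HNRNPF at -0.53 mark the ends of the left panel, and HNRNPUL2 at 0.32 and HNRNPLL at -0.27 those of the right.

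The remaining 5 genes were not called. HNRNPD (chromosome 4, 82352498 to 82374503, minus strand), known as AUF1 and as a regulator of the decay of mRNAs with AU-rich elements, stood at 135, 109 and 117 RPKM in shCtrl and at 138, 128 and 137 RPKM in shMORC2. The groups overlapped through shCtrl replicate 1. Its log2 fold change was 0.16 (SE 0.08, adjusted p 0.138 by edgeR). It was called with the replicate number as a block (0.17, adjusted p 0.0136) and without shCtrl replicate 1 (0.23, adjusted p 0.0423). HNRNPL (chromosome 19, 38836388 to 38852347, minus strand), which binds CA repeats, had 26.8, 26.4 and 26.1 RPKM in shCtrl against 28.2, 27.3 and 28.9 RPKM in shMORC2. Its groups did not overlap, yet the log2 fold change of 0.10 (SE 0.07) did not pass (adjusted p 0.282 by edgeR). HNRNPH1 (chromosome 5, 179614178 to 179634784, minus strand) had 43, 39.5 and 38.1 RPKM against 45.8, 41.1 and 40.8 RPKM, with overlapping groups.

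HNRNPA2B1 and HNRNPU were the members with the smallest or negative values among the uncalled genes. HNRNPA2B1 (chromosome 7, 26189927 to 26201529, minus strand), the close relative of HNRNPA1, stood at 360, 283 and 311 RPKM in shCtrl and at 324, 312 and 306 RPKM in shMORC2. All 3 shMORC2 values lay inside the range of shCtrl. The log2 fold change was -0.0072 (SE 0.09, adjusted p 0.957 by edgeR), and its sign turned without shCtrl replicate 1 (0.070) or without shMORC2 replicate 3 (0.0084). HNRNPU (chromosome 1, 244840638 to 244864542, minus strand), a nuclear scaffold protein that binds RNA and DNA, stood at 144, 112 and 118 RPKM in shCtrl and at 124, 109 and 115 RPKM in shMORC2. Its log2 fold change was -0.09 (SE 0.09, adjusted p 0.461 by edgeR) and turned to 0.0064 without shCtrl replicate 1.

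The spread within a group was not the same for all members. In shCtrl, replicate 1 exceeded the mean of replicates 2 and 3 by a ratio of 1.32 for HNRNPM, 1.26 for HNRNPU, 1.21 for HNRNPA2B1 and 1.19 for HNRNPD in RPKM. The same ratio was 1.02 for HNRNPA1, HNRNPF and HNRNPL. In shMORC2 it was 1.15 for HNRNPM and 1.11 for HNRNPU, so replicate 1 stood high for these genes in both groups. HNRNPH1 had ratios of 1.11 in shCtrl and 1.12 in shMORC2. By CPM, replicate 1 was the highest in both groups for 18.8% of all genes tested. When libraries of equal replicate number were set against each other, HNRNPF fell by 0.50, 0.56 and 0.54 on the log2 CPM scale in replicates 1, 2 and 3 (CPM are counts over TMM-scaled library totals). HNRNPM gave log2 ratios of 0.46, 0.63 and 0.67, and HNRNPC 0.27, 0.43 and 0.34. For HNRNPA2B1 the ratios were -0.15, 0.17 and -0.034, which did not share a sign. HNRNPD, with ratios of 0.034, 0.27 and 0.20, was above 0 in all 3.

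**Figure D3:**
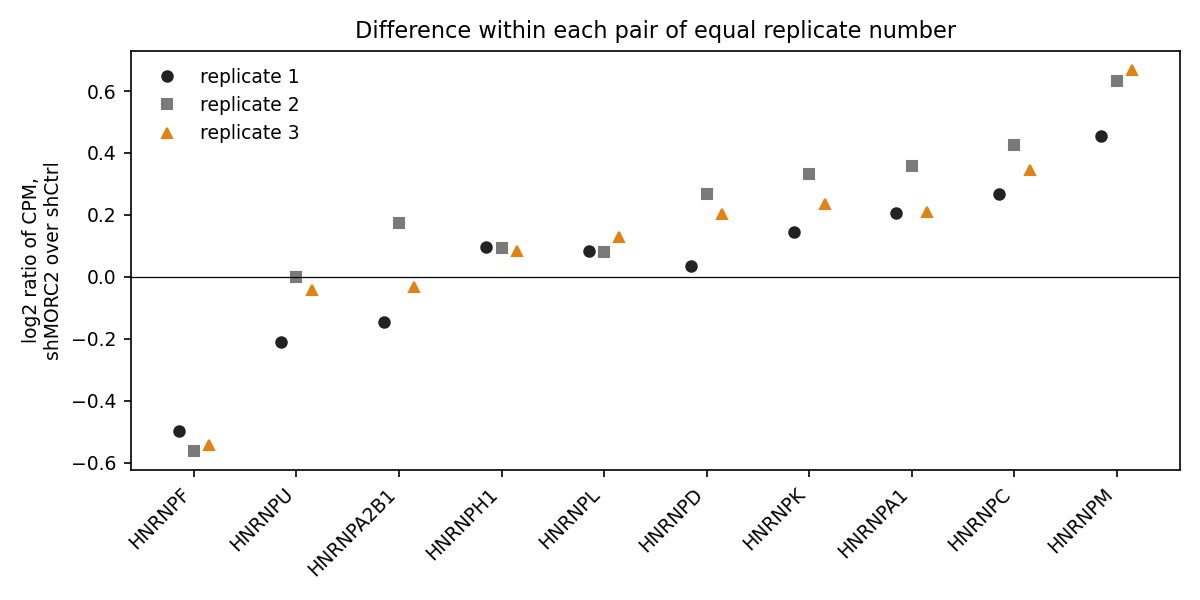
Log2 ratio of CPM in shMORC2 over shCtrl within each pair of libraries of equal replicate number, for the 10 hnRNP genes ordered by fold change, with a symbol for each replicate number. HNRNPF lies between -0.56 and -0.50 and HNRNPM between 0.46 and 0.67, while the ratios of HNRNPA2B1 lie on both sides of 0.

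The summed RPKM of the 10 genes was 2246, 2004 and 2081 in shCtrl and 2346, 2297 and 2303 in shMORC2. All shMORC2 sums were above the shCtrl sums, by a small margin over shCtrl replicate 1. Without HNRNPA1 the sums were 1401, 1191 and 1239 in shCtrl and 1377, 1279 and 1317 in shMORC2, and the groups overlapped. Of the 10 genes, HNRNPA1 had the largest change in mean RPKM, from 834 to 991. In the sum of the other genes, changes in both directions met. HNRNPM (148 to 220), HNRNPC (120 to 151) and HNRNPK (118 to 138) rose, while HNRNPF fell (261 to 179).

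Positions and shared reads bear on how these levels can be read. In the count table HNRNPF, HNRNPH1, HNRNPC and HNRNPA1 shared no exonic base with another gene on the same chromosome. The exons of HNRNPM overlapped those of the antisense gene RP11-886P16.10 by 345 bases, or 6.15% of its exon length, and the mean count of RP11-886P16.10 was 31.5% of that of HNRNPM. RP11-886P16.10 starts 830 bases from HNRNPM on the other strand and was higher in shMORC2 as well, rising from 221 ± 42.9 to 431 ± 53.1 CPM (SD, n = 3 each; log2 fold change 0.97, SE 0.13, adjusted p 6.39e-05 by edgeR). How reads were assigned by strand is not given in the sources used here, so those of the pair cannot be told apart over the shared bases. HNRNPL shared 561 exonic bases on its own strand with AC104534.3, whose mean count was 85.0% of that of HNRNPL, and HNRNPU shared 3502 bases with COX20 on the other strand, or 25.8% of its exon length. HNRNPA2B1 overlapped CBX3 by 368 bases, HNRNPK overlapped RP11-575L7.8 (with a mean count 11.2% of that of HNRNPK) by 309 bases, and HNRNPD overlapped RP11-127B20.3 by 203 bases, all on the other strand.

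Both A-type genes start close to a gene of the heterochromatin protein 1 family on the other strand. CBX3, whose 5′ end lies 367 bases from that of HNRNPA2B1, was higher in shMORC2, rising from 213 ± 30.7 to 277 ± 24.1 CPM (SD, n = 3 each; log2 fold change 0.38, SE 0.10, adjusted p 0.00981 by edgeR), while HNRNPA2B1 was not called. CBX5, whose 5′ end lies 60 bases from that of HNRNPA1, was not called (log2 fold change -0.20, SE 0.09, adjusted p 0.0834 by edgeR), while HNRNPA1 was higher. RMI1, whose 5′ end lies 95 bases from that of HNRNPK, was not called (log2 fold change -0.0090, SE 0.24, adjusted p 0.981 by edgeR), nor was RP11-127B20.3, at 202 bases from HNRNPD (0.28, SE 0.35, adjusted p 0.552 by edgeR). RP11-11N7.4, at 196 bases from HNRNPU, held at most 2 counts in any library and was not tested. The difference between the genes of a pair was not tested.

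The promoters of the gene called lower and of the 2 genes that rose most are given to show the sequence from which these transcripts start, since their levels moved apart. Each window runs from 250 bases before to 50 bases after the start that RefSeq annotates (GRCh38.p14), in the direction of transcription, and of the 10 genes 9 were matched by symbol. Capitals mark CACGTG (the E-box, bound by MYC among others), CCAAT (the box bound by NF-Y), GGGCGG (the GC box) and CCGGAA (the core of ETS sites) on either strand, and no motif holds another.
HNRNPF (chr10:43408808-43409107, minus strand): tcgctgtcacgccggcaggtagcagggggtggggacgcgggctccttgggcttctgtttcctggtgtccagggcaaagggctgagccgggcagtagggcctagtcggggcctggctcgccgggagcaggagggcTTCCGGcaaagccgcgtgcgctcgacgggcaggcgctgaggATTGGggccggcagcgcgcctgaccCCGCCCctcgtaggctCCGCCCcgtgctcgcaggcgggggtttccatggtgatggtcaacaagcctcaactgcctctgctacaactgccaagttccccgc
HNRNPM (chr19:8444725-8445024, plus strand): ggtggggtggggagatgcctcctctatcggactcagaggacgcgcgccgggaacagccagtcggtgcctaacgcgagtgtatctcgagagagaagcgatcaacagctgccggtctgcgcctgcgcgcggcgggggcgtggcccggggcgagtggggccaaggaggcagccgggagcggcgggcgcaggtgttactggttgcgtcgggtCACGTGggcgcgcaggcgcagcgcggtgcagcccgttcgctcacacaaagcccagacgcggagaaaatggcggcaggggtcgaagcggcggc
HNRNPC (chr14:21269393-21269692, minus strand): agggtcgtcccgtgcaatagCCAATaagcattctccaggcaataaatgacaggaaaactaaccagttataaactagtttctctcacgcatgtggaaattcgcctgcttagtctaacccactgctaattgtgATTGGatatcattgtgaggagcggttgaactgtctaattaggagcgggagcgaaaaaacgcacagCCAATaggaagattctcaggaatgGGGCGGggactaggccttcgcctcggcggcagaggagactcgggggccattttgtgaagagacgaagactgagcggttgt
The E-box was found in 2 of the 9 promoters, those of HNRNPM and HNRNPD, against 7.26% of all 35116 promoters. CCAAT was found in 5 of 9 (34.6% of all), GGGCGG in 6 of 9 (44.95% of all) and CCGGAA in 2 of 9 (17.2% of all). The promoter of HNRNPC held CCAAT at 3 places and was 49.3% GC, against 70.7% for HNRNPM, 69.7% for HNRNPF and a median of 58.7% over all promoters. Such matches describe these windows only.

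To see how the hnRNP genes were themselves spliced, the rMATS table that the authors deposited was searched for the 10 symbols. It lists only events that passed the authors' threshold, and its 2 groups of 3 libraries are named group 1 and group 2 with no link to shCtrl or shMORC2, so no knockdown direction was assigned and no test was made. HNRNPA1, HNRNPA2B1 and HNRNPH1 had 1 event each, all of them mutually exclusive exons (MXE). Of 4634 MXE events tested 526 were listed, or 11.4%. At least 1 listed event of any type was found for 3 of the 10 genes and for 98 of the 896 genes, or 10.9%, whose mean count was at least that of the lowest member.

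Of the exons counted for and against each form, 4 are given, because the inclusion level is the share of reads on such sequences, by length, in each library. Capitals are coding exon bases, lower case the 10 adjoining intron bases where the exon ends, all read 5′ to 3′ from GRCh38. Exon numbers are those of the canonical transcript in GENCODE v44.
HNRNPA1 exon 6 (chr12:54282573-54282665): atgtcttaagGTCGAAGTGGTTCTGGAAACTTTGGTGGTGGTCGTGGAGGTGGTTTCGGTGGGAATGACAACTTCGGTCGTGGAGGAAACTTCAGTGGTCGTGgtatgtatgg
HNRNPA2B1 exon 10, coding part (chr7:26192519-26192577): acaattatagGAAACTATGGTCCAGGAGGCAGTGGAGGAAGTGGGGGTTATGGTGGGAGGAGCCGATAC
HNRNPH1 exon 2, coding part (chr5:179623037-179623133): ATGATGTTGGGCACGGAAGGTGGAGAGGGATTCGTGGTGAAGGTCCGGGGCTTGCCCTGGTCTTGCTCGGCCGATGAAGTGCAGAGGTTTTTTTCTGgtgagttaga
HNRNPH1 exon 3 (chr5:179621242-179621397): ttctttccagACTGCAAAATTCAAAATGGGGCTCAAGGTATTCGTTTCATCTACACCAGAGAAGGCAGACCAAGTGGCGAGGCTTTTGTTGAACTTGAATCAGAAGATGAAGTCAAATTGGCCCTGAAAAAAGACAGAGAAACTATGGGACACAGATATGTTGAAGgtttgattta
HNRNPA1 exons 6 and 8, of 93 and 156 bases, HNRNPA2B1 exon 9, of 123 bases, and HNRNPH1 exon 3, of 156 bases, are whole multiples of 3. HNRNPA2B1 exon 10 ends the coding sequence and HNRNPH1 exon 2 holds its start.

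In HNRNPA1 the inclusion level is the share of exon 6 against exon 8. It was 0.649, 0.615 and 0.616 in group 1 and 0.728, 0.736 and 0.720 in group 2. The mean difference was -0.102 (group 1 minus group 2) on 2966 to 3365 reads per library, and -0.109 without the correction for length. Group 2 thus held more exon 6 reads relative to exon 8 reads in each of its libraries. The reads for exon 6 numbered 1791, 1867 and 1835 in group 1 and 2124, 2033 and 2159 in group 2, and those for exon 8 numbered 1245, 1498 and 1469 against 1018, 933 and 1079.

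In HNRNPA2B1 the level is the share of exon 9 against exon 10. It was 0.321, 0.346 and 0.350 in group 1 and 0.478, 0.480 and 0.472 in group 2, with a mean difference of -0.138 on 5705 to 10726 reads per library. The exon 9 reads overlapped between the groups, at 3854, 4023 and 3944 against 4029, 2986 and 3521, whereas the exon 10 reads numbered 6872, 6410 and 6161 in group 1 and 3701, 2719 and 3310 in group 2. The exon 10 reads of the groups did not overlap. In HNRNPH1 the level is the share of exon 2 against exon 3, at 0.509, 0.448 and 0.504 in group 1 and 0.374, 0.386 and 0.390 in group 2. Its mean difference of 0.104 had the opposite sign and rested on 422 to 482 reads per library.

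These exons are not strict alternatives in the annotation. In GENCODE v44, 36 of 49 HNRNPA2B1 transcripts hold both exons, as do 21 of 49 HNRNPH1 transcripts and 3 of 84 HNRNPA1 transcripts. The table counts reads on the exon as well as reads across its junctions, so a transcript with both exons can add reads to both forms. For HNRNPA1, 8 transcripts hold exon 6 without exon 8 and 7 hold exon 8 without exon 6.

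**Figure D4:**
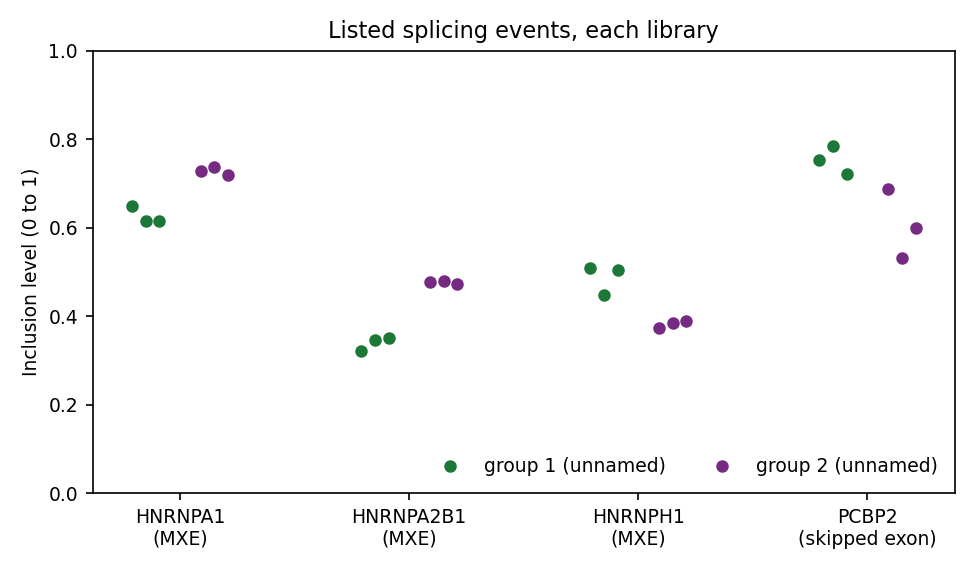
Inclusion level (0 to 1) in each of the 6 libraries for the listed events in HNRNPA1, HNRNPA2B1, HNRNPH1 and PCBP2, with the 3 libraries of the unnamed group 1 in green and those of the unnamed group 2 in purple. The groups do not overlap in any of these 4 events, which the authors had selected for a difference.

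The wider family was compared with a list of 18 other hnRNP genes, of which all were tested. HNRNPUL2 was called higher and HNRNPLL lower, 2 of 18 against 39.5% of all genes, with a median log2 fold change of 0.054. HNRNPUL2, a relative of HNRNPU, rose from 77.6 ± 4.92 to 96.03 ± 1.96 RPKM (SD, n = 3 each; log2 fold change 0.32, SE 0.07, adjusted p 0.00409 by edgeR). HNRNPLL, a relative of HNRNPL known from CD45 splicing in lymphocytes, fell from 5.68 ± 0.379 to 4.70 ± 0.211 RPKM (log2 fold change -0.27, SE 0.08, adjusted p 0.0197 by edgeR). The call was kept by 10 of 15 alternatives and lost when shCtrl 1 (-0.24), shCtrl 3 (-0.23), shMORC2 2 (-0.25) or shMORC2 3 (-0.26) was dropped. With the replicate number as a block 9 of the 18 were called, 6 higher and 3 lower, against 49.0% of all genes. HNRNPA0, HNRNPA3, HNRNPAB, HNRNPDL and RALY were then added as higher and PTBP1 and PCBP1 as lower.

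PCBP2, a KH-domain relative of HNRNPK that was not called as a gene (log2 fold change -0.06, SE 0.09, adjusted p 0.593 by edgeR), was the 1 of these 18 genes with a listed event. It is a skipped exon of 39 bases, exon 12 of 15, at chr12:53467805-53467843.
PCBP2 exon 12: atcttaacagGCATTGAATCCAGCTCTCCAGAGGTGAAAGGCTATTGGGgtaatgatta
Its inclusion level was 0.754, 0.784 and 0.722 in group 1 and 0.687, 0.531 and 0.599 in group 2, on 235 to 341 reads per library.

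Of 9 partners and regulators of hnRNPs, 3 were called, 1 higher and 2 lower, against 39.5% of all genes, and their median log2 fold change was -0.14. MYC, a transcription factor known to drive HNRNPA1, HNRNPA2B1 and PTBP1, fell from 132, 155 and 130 RPKM in shCtrl to 74.6, 64.1 and 73.6 RPKM in shMORC2 (log2 fold change -0.97, SE 0.09, adjusted p 3.47e-06 by edgeR). HNRNPA1 was higher in the same libraries, HNRNPA2B1 was not called, and PTBP1 had a log2 fold change of -0.15 (SE 0.07, adjusted p 0.124 by edgeR; -0.15, adjusted p 0.0284, with the replicate number as a block). MATR3, a nuclear matrix protein that binds PTBP1, fell from 43.2, 38.7 and 36.5 RPKM in shCtrl to 35.9, 30.6 and 28.6 RPKM in shMORC2, a mean of 39.5 against 31.7 RPKM (log2 fold change -0.31, SE 0.09, adjusted p 0.0123 by edgeR). The call was kept by 12 of 15 alternatives and lost when shMORC2 2 (-0.29) or shMORC2 3 (-0.24) was dropped. MKNK1, a kinase that phosphorylates translation factors and HNRNPA1, rose from 3.48 ± 0.263 to 4.09 ± 0.0610 RPKM (log2 fold change 0.24, SE 0.08, adjusted p 0.0284 by edgeR). That call was kept by 7 of 15 alternatives, and it was lost when shCtrl 1 (0.24), shCtrl 3 (0.20), shMORC2 2 (0.24) or shMORC2 3 (0.23) was dropped. The importins TNPO1 and TNPO2, the arginine methyltransferases PRMT1 and PRMT5, MKNK2 and ELAVL1 were not called. Under the block TNPO1 and MKNK2 were called lower as well.

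The last list held 10 RNAs known as targets or partners of hnRNPs. Of these, 7 were called, 4 higher and 3 lower, against 39.5% of all genes (19.9% higher and 19.6% lower). The median log2 fold change of the 10 was -0.10. Like the members and the other lists, this list was chosen with earlier results of these data known. Its share of called genes therefore only describes the list. Called partners and targets together numbered 10, but 4 to 6 in the 3 limma fits, 5 when shMORC2 2 was dropped and 4 when shMORC2 3 was dropped. CD44, whose variable exons respond to HNRNPM and HNRNPL, rose from 0.798 ± 0.134 to 1.38 ± 0.123 RPKM (log2 fold change 0.80, SE 0.13, adjusted p 0.000310 by edgeR). PKM, whose alternative exons are governed by HNRNPA1, HNRNPA2B1 and PTBP1, rose from 185 ± 3.27 to 218 ± 13.5 RPKM (log2 fold change 0.24, SE 0.08, adjusted p 0.0331 by edgeR). The PKM call was kept by 10 of 15 alternatives and lost when shCtrl 1 (0.21), shCtrl 2 (0.24), shMORC2 2 (0.23) or shMORC2 3 (0.19) was dropped. FAS was higher (0.48, SE 0.15, adjusted p 0.0208 by edgeR). Its call was kept by 9 of 15 alternatives and lost in the 3 limma fits and when shCtrl 1 (0.44), shCtrl 3 (0.42) or shMORC2 2 (0.45) was dropped. FGFR2 had 2, 18 and 10 counts in shCtrl and 24, 40 and 22 counts in shMORC2. Its log2 fold change of 1.49 (SE 0.53, adjusted p 0.0384 by edgeR) ran from 0.99 to 2.21 over the alternatives on counts. It was 0.078 with limma on log2(RPKM + 1) without a filter, where the added 1 exceeds its RPKM in every library. FGFR2 was called in 8 of its 13 alternatives, and not when shCtrl 1 (0.99), shCtrl 3 (1.52), shMORC2 2 (1.15) or shMORC2 3 (1.65) was dropped. NEAT1 is a gene for RNA of paraspeckles, which hnRNPs help to build. It fell from 5.03 ± 0.810 to 2.61 ± 0.386 RPKM (log2 fold change -0.94, SE 0.12, adjusted p 5.15e-05 by edgeR). MALAT1, a nuclear speckle RNA, was lower with a log2 fold change of -0.45 (SE 0.14, adjusted p 0.0189 by edgeR). That call was kept by 10 of 15 alternatives and lost in the 3 limma fits and when shCtrl 2 (-0.37) or shMORC2 3 (-0.27) was dropped. The libraries were made from polyadenylated RNA, and which forms of NEAT1 and MALAT1 they captured was not tested. MST1R, whose exon 11 is a known hnRNP-controlled exon, was lower at -0.27 (SE 0.09, adjusted p 0.0237 by edgeR), kept as a call by 11 of 15 alternatives and lost when shCtrl 2 (-0.29), shCtrl 3 (-0.23), shMORC2 1 (-0.24) or shMORC2 3 (-0.28) was dropped. Exon 11 of MST1R was in the table as a skipped exon, on 12 to 20 reads per library, with levels of 1, 0.738 and 0.585 in group 1 and 1, 1 and 0.767 in group 2. These overlapped between the groups, and no test was made on them.

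**Figure D5:**
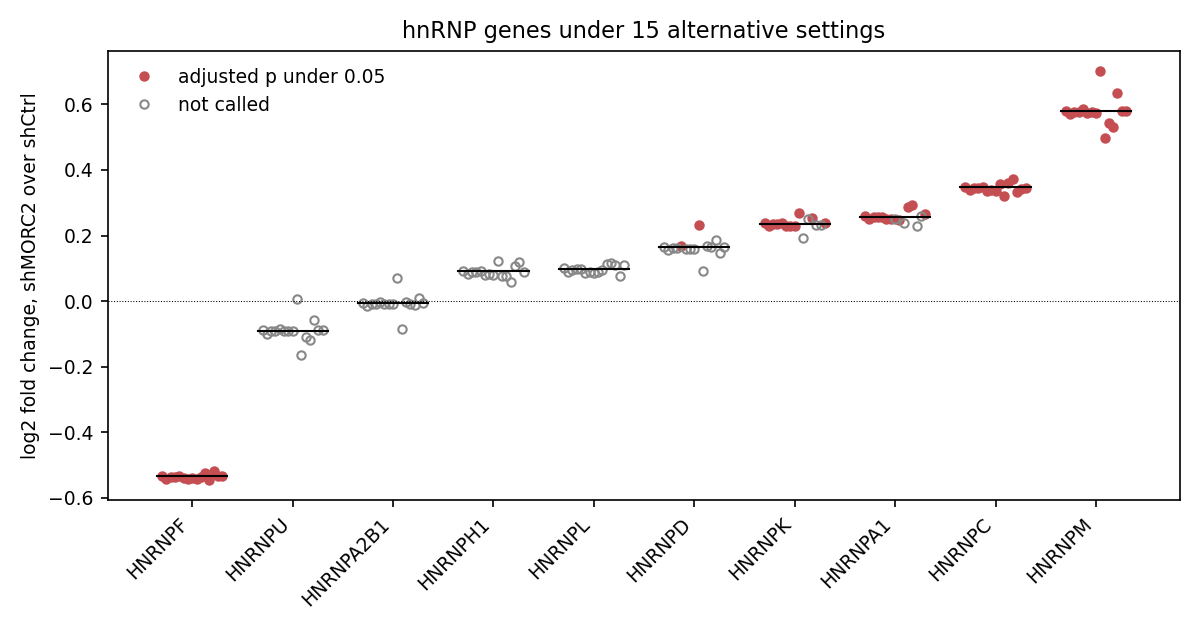
Log2 fold change of each hnRNP gene under 15 alternative settings (points, filled red where the adjusted p was under 0.05 and open grey where it was not) around the reported value (black line). HNRNPF, HNRNPC and HNRNPM were called in all 15, HNRNPA1 and HNRNPK in 11 and HNRNPD in 2.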

How the data were processed

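Polyadenylated RNA of SW480 cells was sequenced in 3 shCtrl and 3 shMORC2 libraries from a stranded kit with molecular identifiers. The submitters' processing notes name Trimmomatic 0.36, STAR 2.5.3a, Subread 1.5.1 with featureCounts, edgeR 3.12.1 and GRCh38. The strand setting, the annotation release and the collapsing of identifiers are not given in the sources used here. The authors deposited raw counts per gene symbol, and RPKM values that they computed from them, and the deposited rMATS table held reads per form as counts, form lengths and inclusion levels as a fraction. Its p-values and differences, and the counts of significant events in its summary, were the authors' own comparisons and were not used. Levels were recomputed from the reads and matched within 0.0011.

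The test on counts was the quasi-likelihood F test of edgeR 4.0.16 (R 4.3.3), after filterByExpr and TMM and without covariates. P-values were adjusted by Benjamini-Hochberg over 21005 genes and called under 0.05. The SE is the size of the log2 fold change divided by the square root of F. Levels between genes were compared as RPKM. The study describes 3 replicate experiments per group, and p-values measure the spread between these. Same-numbered libraries deviated together from their group means (correlations 0.386, 0.193 and 0.181), and a pairing by number rests on these values alone. The reported calls come from the test without this pairing, except where the replicate block is named. Results were also computed with the replicate block, with 2 other filters on counts, with plain library totals, with DESeq2 1.42.0, with limma 3.58.1 on log2(RPKM + 1) and log2(RPKM + 0.1), with each library left out, with a log2 change of at least 0.5 required and, chosen after seeing the data, the reads of gene copies added to their parent genes. The fits were tested on simulated data.

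The named genes were MORC2, the 10 members, every called gene of 3 lists of hnRNP relatives, partners and target RNAs, neighbours with a 5′ end within 2000 bases on the other strand, the 3 genes most like the members' summed CPM, and every listed splicing event in these genes. Members and lists were chosen with earlier results of these data known. PTBP1, TNPO1, TNPO2, PRMT1, PRMT5, MKNK2, ELAVL1 and the genes that were added or lost under the block were named besides the rule. So were the genes whose exons overlap those of a member. A gene of these lists and the sequences of some exons are not reported here.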

Additional observations from a re-analysis of the deposited data

How the results depend on the processing

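Among the 10 hnRNP genes, HNRNPF, HNRNPC and HNRNPM kept their direction and call in all 15 alternatives, as did MORC2 (log2 fold change -0.74 to -0.55 with a library left out). The count of called members was 5, or 2 with a log2 change of at least 0.5 required, and ran from 3 (when shMORC2 2, shMORC2 3 or shCtrl 2 was dropped) to 6 with a library left out. HNRNPA1 was not called with limma on log2(RPKM + 1) without a filter (log2 fold change 0.25), and with a library left out it ran from 0.23 to 0.29. HNRNPK ran from 0.19 to 0.27, HNRNPD from 0.093 to 0.23, HNRNPA2B1 from -0.087 to 0.070 and HNRNPU from -0.16 to 0.0064. HNRNPD was called with the replicate block (0.17), which changed no other call of a member. The block gave 9 called genes among the other hnRNP genes in place of 2, limma without a filter gave 1, and they ran from 1 (when shCtrl 3, shMORC2 2 or shMORC2 3 was dropped) to 3 with a library left out. Partner and target genes called numbered 10, or 6 with limma on log2(RPKM + 1), 6 on log2(RPKM + 0.1) and 4 without a filter on RPKM, and 4 to 11 with a library left out (5 without shMORC2 replicate 2 and 4 without shMORC2 replicate 3). All genes called numbered 8301 (39.5% of those tested), or 6268 to 8433 (29.0% to 39.2%) with a library left out. They numbered 5454 (14.9%) with limma without a filter and 4707 with a log2 change of at least 0.5. The cause was not tested. Among other named genes, 41 values lost their call and 137 kept it. Adding the reads of copies moved no call of a member. All 3 splicing events of the members had at least 10 reads in every library. Fits without a library rest on 5 libraries.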

Other observations

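Copies of the hnRNP genes, taken as symbols made of the parent symbol with P or L and a number, held few of the counted reads. How reads that match both a parent and a copy were counted was not examined. The values below therefore cover only reads as they were assigned. HNRNPA1 had 76 such copies in the count table, and together they held 3.67% to 4.90% as many reads as HNRNPA1 itself in a library. The 13 copies of HNRNPC held 5.80% to 6.41% as many reads as HNRNPC. The copies of HNRNPF and HNRNPM held at most 2 counts and 0 counts in any library. With the reads of the copies added, the log2 fold change was 0.27 for HNRNPA1 (adjusted p 0.0166 by edgeR), 0.34 for HNRNPC (adjusted p 0.00224 by edgeR) and -0.53 for HNRNPF (adjusted p 6.66e-05 by edgeR).

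Over the 6 libraries, the genes whose log2 CPM was most like the log2 of the summed CPM of the 10 hnRNP genes, of 9820 compared, were TMED2 (Pearson r 0.998), CTD-2410N18.5 (0.996) and SSBP1 (0.996). These values are a description over 6 libraries that share depth and replicate number.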
